A study of Mus musculus with 4 samples.

Results

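The 45 DNA replication genes described here were found by their symbols among the 55487 genes listed in the deposited counts, and they cover the licensing factors, the replicative helicase, the DNA polymerases, the sliding clamp and its loader, the proteins that bind and join new strands, and the enzymes of deoxynucleotide synthesis. The list groups genes by their known function. RNA was sequenced from wild-type mouse embryonic fibroblasts (MEFs) of C57BL/6J embryos, primary cells whose divisions in culture are limited. The labels give passage 2 for these cells, while the study's text gives a later passage. MEFs were treated for 24 h with purified PEDF at 100 ng/mL, a secreted protein also known as pigment epithelium-derived factor, or were left untreated. Experiments 1 and 2 each gave 1 control library and 1 PEDF library, so there were 2 libraries a group. The cells of each experiment came from different embryos, and how many embryos were pooled is not given in the sources used here. The comparison addressed whether PEDF changed gene expression in MEFs.

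DNA replication begins at origins that are bound by the origin recognition complex (ORC). Before S phase, CDC6 and CDT1 load the ring-shaped MCM2-7 complex at these origins, and geminin keeps CDT1 inactive afterwards. In S phase, CDC45 and the GINS complex turn MCM2-7 into an active helicase, polymerase alpha with primase starts each strand, and polymerases epsilon and delta extend the strands while held to DNA by the PCNA clamp. Transcripts of many of these genes are made in late G1 and S phase under the control of E2F transcription factors, so they are widely used as marks of dividing cells and are low in resting and senescent fibroblasts.

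The libraries held 14722848 to 18144640 counts, and factors from edgeR's TMM method, which scale the library sizes, lay between 0.98 and 1.01. All 45 genes were well covered, with 604 to 15365 counts summed over the 4 libraries (median, 2580, against 775.5 for the 19384 genes tested) and no fewer than 118 counts in a library. All 45 also passed the filter of at least 10 counts in total. The fibroblast markers carried most marker expression. Their summed level was 14660 to 19887 TPM (a level per gene length, which sums to 1000000 in a library). That of macrophage markers was 115 to 209 TPM, of muscle markers 433 to 614 TPM, of neural markers 111 to 131 TPM, of epithelial markers 72.5 to 90.8 TPM and of endothelial markers 6.98 to 7.36 TPM, with Tie1 at 0 in all libraries. The fibroblast sum was lower in the PEDF library than in the control library of both experiments, at 14660 against 16540 TPM and at 16686 against 19887 TPM. Of the 10 fibroblast markers, 7 were fitted below 0 for PEDF, among them Fn1 (log2 fold change, −0.37) and Col1a1 (−0.25), and 3 above 0, among them Dcn (0.34). The muscle sum was higher in the PEDF library of both experiments, at 489 against 433 TPM and at 614 against 539 TPM. The macrophage sum was 209 against 205 TPM in experiment 1, where the sum in CPM ran the other way, and 168 against 115 TPM in experiment 2. Of the 8 macrophage markers, 4 were fitted above 0 and 4 below, and Lyz2 made up most of the difference in experiment 2, at 101 against 57.8 TPM. The part of these markers in the results below was not tested.

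Every DNA replication gene was expressed in every library. In experiment 1 the 45 genes summed to 1779 TPM in control and 1763.5 TPM in PEDF-treated MEFs, and in experiment 2 to 1796 and 1854.5 TPM. The highest of these sums was 1.05 times the lowest. Levels compared between genes per length ranged from 7.45 TPM for Orc5 to 156 TPM for Rrm2, the small subunit of ribonucleotide reductase. Means below 10 TPM were found for 4 genes, and means above 50 TPM for 12 genes. Pcna, the clamp, stood next to Rrm2, with a mean of 142 ± 5.10 TPM (SD, n = 4 libraries of both groups), and Rrm2 had a mean of 156 ± 10.5 TPM (SD, n = 4). Rrm2 was above Pcna in each library, but the ranges of the 2 genes over the libraries overlapped.

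**Figure D1:**
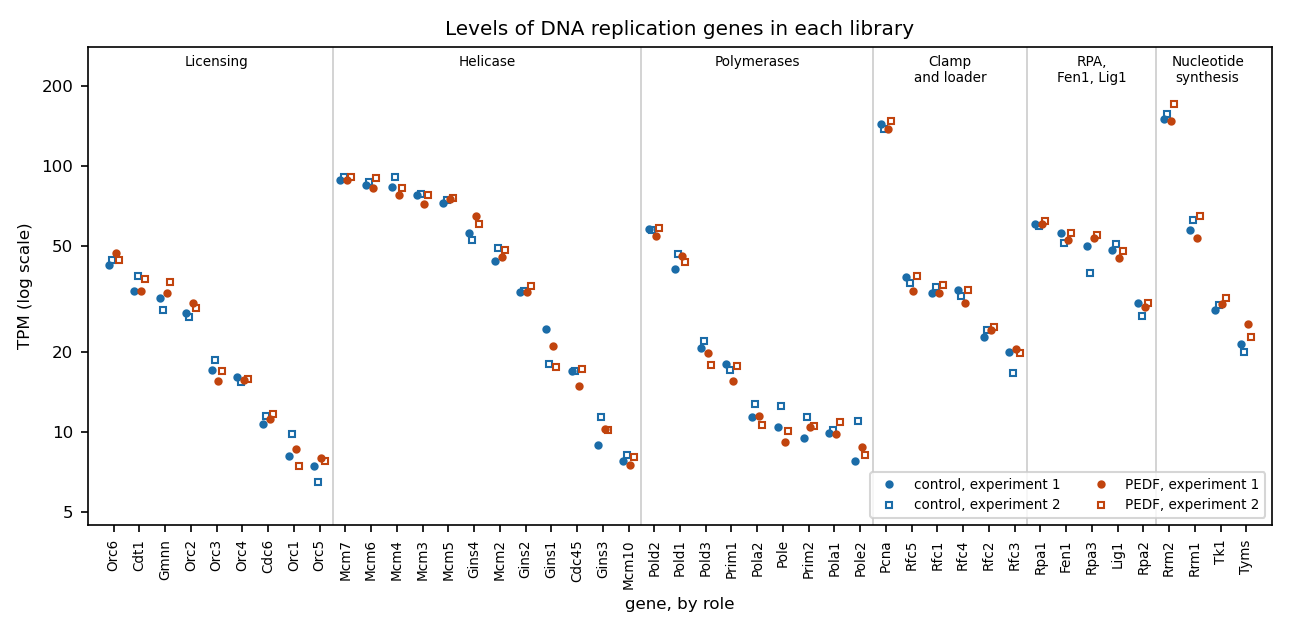
Level of each DNA replication gene in each library in TPM (log scale), with genes grouped by role and ordered by their mean. Blue marks are control libraries and red marks PEDF libraries, with circles for experiment 1 and squares for experiment 2. Rrm2 and Pcna were the highest, and the libraries of a gene lie close together, as for Mcm7 at 89.8 TPM.

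Subunits of 1 complex did not all have the same transcript level. Across the MCM2-7 subunits the mean level spanned 1.92 times, from 46.8 TPM for Mcm2 to 89.8 TPM for Mcm7, and across the RFC subunits it spanned 1.91 times, from 19.3 TPM for Rfc3 to 36.8 TPM for Rfc5. The ORC and GINS complexes were more uneven. Orc6 was at 44.6 TPM and Orc5 at 7.45 TPM, which is 5.99 times, and Gins4 was at 58.6 TPM and Gins3 at 10.2 TPM, which is 5.73 times. Polymerase alpha and primase lay close together, from 10.2 TPM for Pola1 to 17.1 TPM for Prim1. Among the 45 genes, the polymerase delta subunits ran from 20.1 TPM for Pold3 to 57.2 TPM for Pold2, and the epsilon subunits Pole and Pole2 were at 10.6 and 8.96 TPM. Levels per length depend on the gene length used in the conversion, which is not given in the sources used here.

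Promoter sequence was examined because E2F control is the best known feature that these genes share. In RefSeq, with coordinates of GRCm38.p6, 37 of the 45 genes had 1 or more windows of 300 bases around an annotated start (250 before and 50 after). Gins1, Gins2, Gins4, Gmnn, Mcm4, Pole, Prim2 and Rfc2 were not among them. The letters of an E2F site (TTTGGCGC, TTTCCCGC, TTTGCCGC and TTTCGCGC) were searched as 4 strings on both strands. At least 1 was present in 15 of the 45 windows of these genes, or 33.3%, compared with 2.26% of all 32851 windows. The matches below lie before the start and are shown with the flanking bases on the strand of the gene, with the matched letters in capitals. GCGGGAAA, GCGCGAAA and GCGCCAAA are TTTCCCGC, TTTCGCGC and TTTGGCGC read on the other strand.
Orc1 (chr4:108579416-108579445, plus strand, 27 bases before the start): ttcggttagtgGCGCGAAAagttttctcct
Orc3 (chr4:34614965-34614994, minus strand, 41 bases before the start): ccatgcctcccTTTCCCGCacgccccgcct
Cdc6 (chr11:98908002-98908031, plus strand, 138 bases before the start): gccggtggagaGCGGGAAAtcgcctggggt
Gins3 (chr8:95633507-95633536, plus strand, 41 bases before the start): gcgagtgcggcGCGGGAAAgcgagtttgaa
Mcm5 (chr8:75109345-75109374, plus strand, 153 bases before the start): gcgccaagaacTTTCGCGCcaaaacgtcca
Mcm6 (chr1:128359734-128359763, minus strand, 47 bases before the start): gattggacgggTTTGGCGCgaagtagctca
Mcm7 (chr5:138172030-138172059, minus strand, 165 bases before the start): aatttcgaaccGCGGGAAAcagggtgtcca
Pola1 (chrX:93632275-93632304, minus strand, 138 bases before the start): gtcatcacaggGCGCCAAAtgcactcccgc
Rfc3 (chr5:151651200-151651229, minus strand, 10 bases before the start): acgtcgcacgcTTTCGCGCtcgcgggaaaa

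Some promoters held more than 1 match, as in Mcm6, and matches of different strings may share bases. The RefSeq start of a gene can lie inside the gene as the counts define it, as for Cdc6. Windows were also found for 32 of 39 other DNA replication genes and for 33 of 42 mitosis genes. The same E2F strings were present in 28.9% and 5.71% of these windows, in the same order. The mitosis genes were instead rich in the letters of the cell cycle homology region (CHR; TTTGAA or TTCGAA), a motif known from genes of G2 and M phase. These were present in 77.1% of the mitosis windows, 15.6% of the windows of the 45 DNA replication genes and 19.2% of all windows. The CCAAT box was present in 55.6% of the windows of the 45 genes, 77.1% of the mitosis windows and 37.4% of all windows. A match is a string of letters and was not tested for binding, and a window without one was searched for these letters only.

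**Figure D2:**
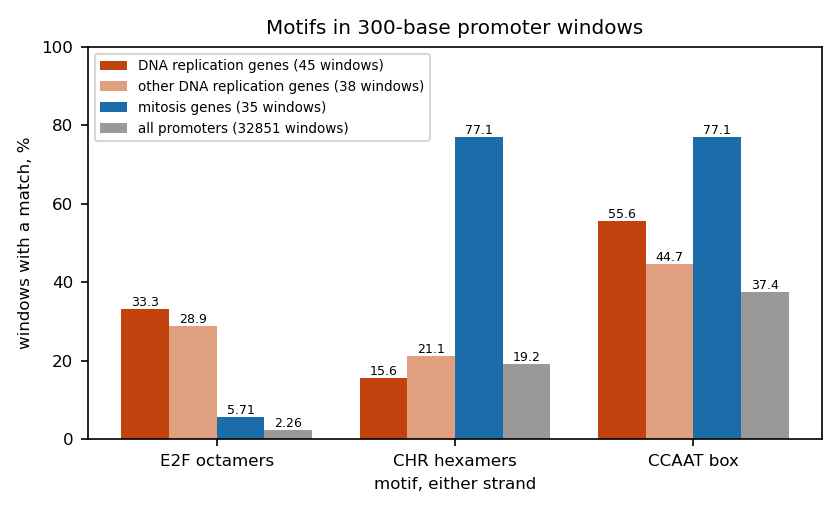
Share of 300-base promoter windows that hold a motif on either strand, in percent, for DNA replication genes, other DNA replication genes, mitosis genes and all promoters in RefSeq. In the first 3 lists, windows were found for 37 of 45, 32 of 39 and 33 of 42 genes. The bars for E2F strings are 33.3% and 28.9% for the 2 replication lists, and those for CHR letters are highest for mitosis genes, at 77.1%.

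The effect of PEDF was tested with edgeR's quasi-likelihood method, with Benjamini-Hochberg adjustment over the 19384 genes. No DNA replication gene passed an adjusted p of 0.05, and the smallest adjusted p in edgeR was 0.696. Over all genes tested, 0.00516% passed. At an unadjusted p under 0.05, 4 of the 45 genes passed beside 6.88% of all genes. Of these, 3 were higher in PEDF-treated MEFs, beside 3.22% of all genes, and 1 was lower, beside 3.66%. In DESeq2, 0 of the 45 passed an unadjusted p of 0.05, beside 1.46% of all genes, and of those to which DESeq2 gave an adjusted p, 0 passed the adjusted threshold, beside 0.0191% of all genes. When the experiment was added to the edgeR fit as a block, so that differences between the MEF preparations no longer count as spread, 1 of the 45 genes passed the adjusted threshold, beside 3.75% of all genes. That gene was Tyms, thymidylate synthase, which rose. Counts from whole cultures do not tell fewer cells in S phase apart from less RNA per cell.

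The differences were small in size. Fitted log2 fold changes ranged from −0.23 for Pole to 0.30 for Rpa3, with 28 genes above 0, beside 50.2% of all genes, and 17 below. Their median was 0.03, beside 0.0012 for all genes tested. The size of the change without its sign had a median of 0.06 on the log2 scale, beside 0.14 for all genes, and the median standard error was 0.09, beside 0.16. The 95% confidence interval of the log2 fold change lay within −1 to 1 for all 45 genes, within −0.5 to 0.5 for 43 genes and within −0.25 to 0.25 for 20 genes. A change of 1.41-fold in either direction was thus outside the interval of 43 genes.

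**Figure D3:**
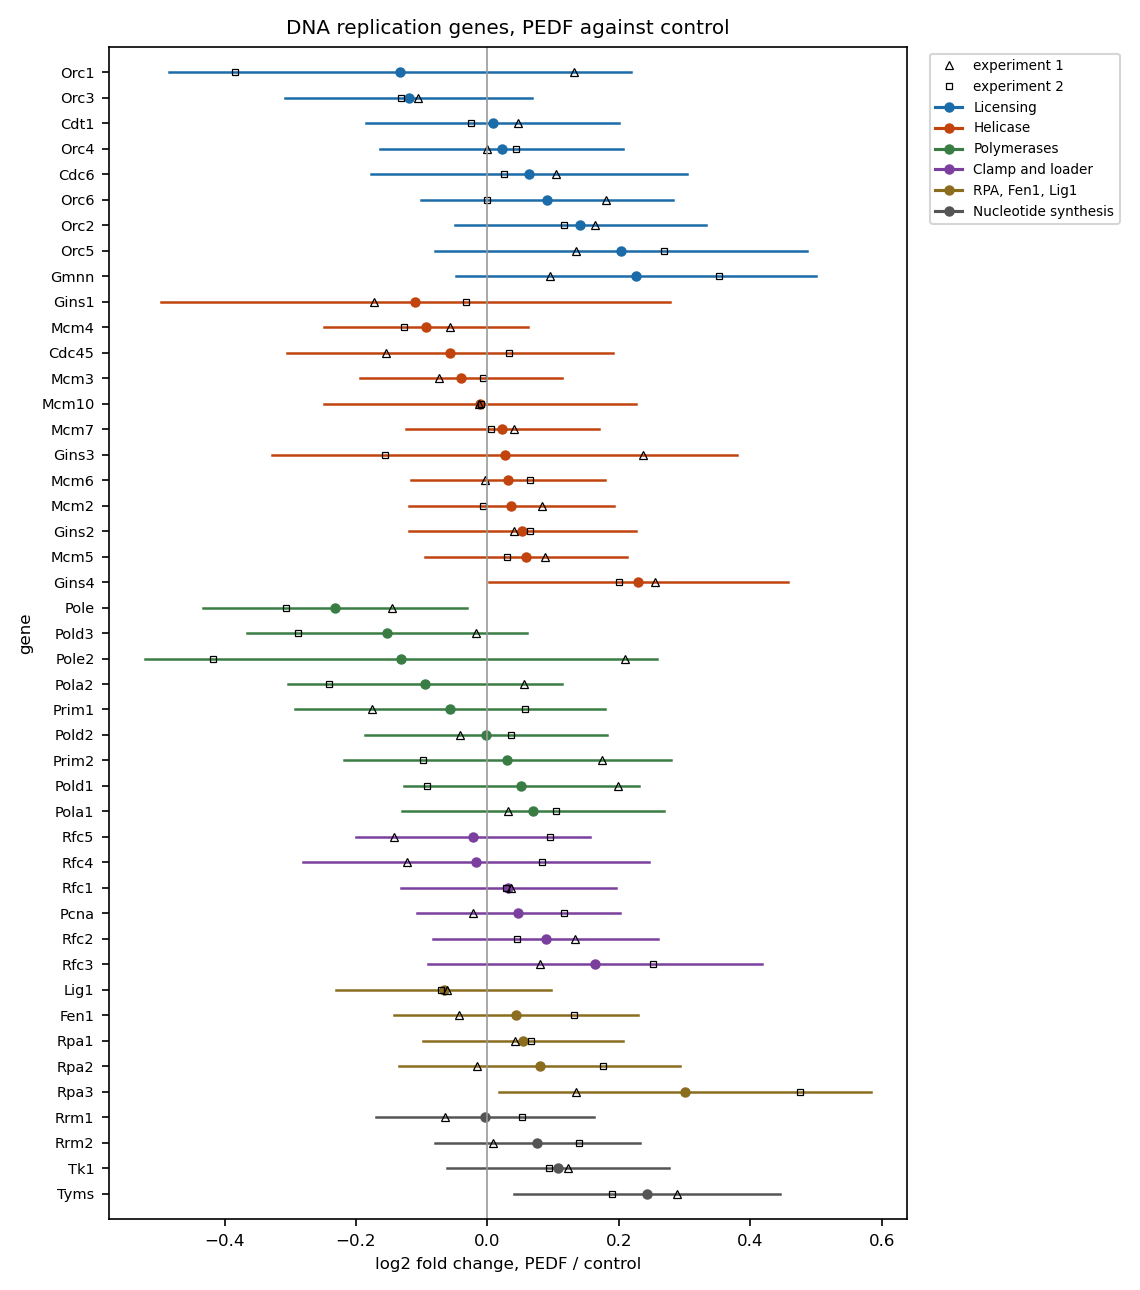
Log2 fold change of each DNA replication gene, PEDF over control, from edgeR without a block. Filled circles are the fitted values with 95% confidence intervals, coloured by role, and open triangles and squares are the differences within experiments 1 and 2. The intervals of Gins4, Pole, Rpa3 and Tyms do not include 0, and no gene had an adjusted p under 0.05.

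Both PEDF libraries were above both controls in CPM (counts per 1000000 counts of the scaled library) for 14 of the 45 genes, beside 18.9% of all genes, and below both for 6 of the 45, beside 18.4%. Within an experiment, the difference between the PEDF library and its control had the same sign in both experiments for 25 of the 45 genes, beside 58.9% of all genes. It was above 0 in both for 17 genes, beside 30.1%, and below 0 in both for 8 genes, beside 28.8%. The median difference was 0.04 on the log2 scale in each experiment. Across the 45 genes, which are not independent replicates and share their libraries, the differences of experiments 1 and 2 had a Pearson's r of 0.09 and a Spearman's rho of 0.10, and across the 10722 genes whose log2 CPM averaged over 3 the values were 0.32 and 0.36.

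**Figure D4:**
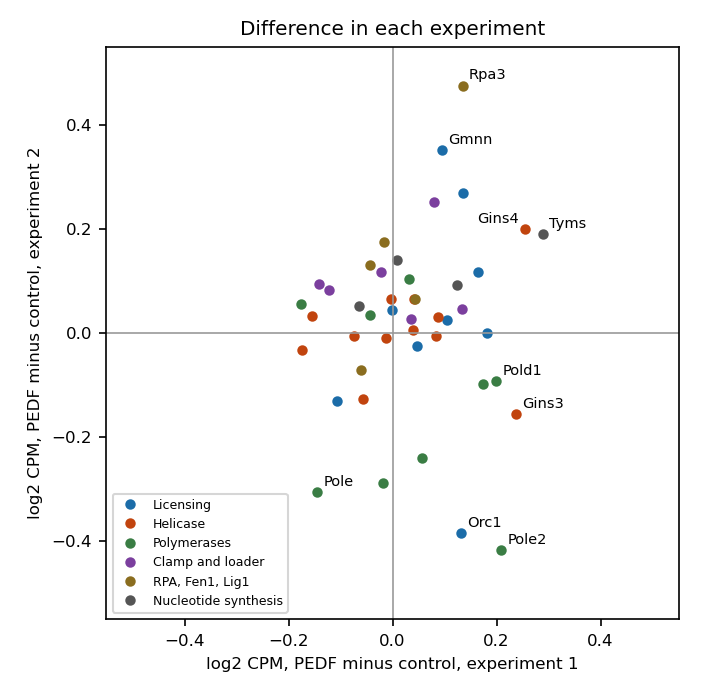
Difference in log2 CPM between the PEDF library and the control library for each DNA replication gene, in experiment 1 (horizontal axis) and experiment 2 (vertical axis), coloured by role. Genes at the upper right and the lower left moved the same way in both experiments (17 and 8 genes), and Orc1 and Pole2 are among the 20 genes that did not.

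Of the 9 licensing genes, none was called and the median log2 fold change was 0.06, with 7 fitted above 0. Gmnn encodes geminin, the inhibitor of CDT1. It had 16.7 and 14.6 CPM in control (experiment 1, then experiment 2, as in all pairs of values here) and 17.8 and 18.6 CPM in PEDF-treated MEFs. The groups did not overlap, but the log2 fold change of 0.23 had an interval of −0.05 to 0.50 and an adjusted p of 0.758 in edgeR, and was 0.13 to 0.32 with 1 library left out. Orc5, a subunit of the ring that holds the origin, likewise had higher values in both PEDF libraries. It had 16.3 and 13.9 CPM in control and 17.95 and 16.8 CPM in PEDF-treated MEFs. Its log2 fold change was 0.20 (95% interval, −0.08 to 0.49). It was 0.09 without control library 2 and up to 0.32 with another library left out. Orc2 and Cdc6 were the other 2 licensing genes with no overlap upwards.

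Orc1, the ORC subunit known as an E2F target, had no common direction. Its control libraries had 10.03 and 11.8 CPM and its PEDF libraries 11.0 and 9.04 CPM, so the difference was 0.13 in experiment 1 and −0.38 in experiment 2 on the log2 scale. Orc3 was lower in both PEDF libraries, with 34.55 and 35.9 CPM against 37.2 and 39.4 CPM, and its log2 fold change was −0.12 (95% interval, −0.31 to 0.07). The loaders CDC6 and CDT1 are both needed for MCM loading. Cdc6 had 19.9 and 20.9 CPM in control and 21.4 and 21.2 CPM in PEDF-treated MEFs, and its log2 fold change was 0.06 (95% interval, −0.18 to 0.30). Cdt1 had 37.7 and 41.8 CPM in control and 38.9 and 41.1 CPM in PEDF-treated MEFs, and the 2 groups overlapped.

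The summed CPM of the 12 helicase genes varied least among the 6 roles, with a highest library 1.01 times the lowest, and no gene was called. The 6 MCM2-7 transcripts together had 702 and 715 CPM in the control libraries and 709.6 and 714 CPM in the PEDF libraries, and the interval of each of the 6 genes lay within −0.25 to 0.25. Mcm4 had the lowest log2 fold change of the 6, at −0.09 (95% interval, −0.25 to 0.06), and was lower in both PEDF libraries, with 102 and 103 CPM against 106 and 112 CPM. Mcm5 had the highest, at 0.06 (95% interval, −0.09 to 0.21), with 103 CPM in both control libraries and 109.6 and 105 CPM in the PEDF libraries. The other subunits lay between these values. Mcm2, Mcm3, Mcm6 and Mcm7 had log2 fold changes of 0.04, −0.04, 0.03 and 0.02, all smaller than their standard errors of 0.07. With 1 library left out, these ranged from −0.0199 to 0.0949 for Mcm2, −0.06 to −0.0185 for Mcm3, 0.0039 to 0.06 for Mcm6 and 0.0079 to 0.04 for Mcm7. Mcm4 then ranged from −0.13 to −0.054 and Mcm5 from 0.028 to 0.09.

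Cdc45, which joins MCM2-7 to form the helicase, had 21.2 and 20.6 CPM in control and 19.0 and 21.1 CPM in PEDF-treated MEFs. Its groups overlapped, and its log2 fold change was −0.06 (95% interval, −0.31 to 0.19). The GINS subunits, its partners, differed from each other. Gins4 had 26.8 and 24.6 CPM in control and 32.0 and 28.3 CPM in PEDF-treated MEFs. Both PEDF libraries were above both controls, and the log2 fold change of 0.23 had an unadjusted p of 0.0473 and an adjusted p of 0.719 in edgeR. It was 0.14 without PEDF library 1 and 0.32 without PEDF library 2. Gins1, by contrast, followed the experiments, with 13.1 and 11.6 CPM in the control and PEDF libraries of experiment 1 and 9.47 and 9.26 CPM in those of experiment 2. Its log2 fold change for PEDF was −0.11 (95% interval, −0.50 to 0.28).

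The 9 polymerase genes had a median log2 fold change of −0.06, and 6 of them were fitted below 0. Without PEDF library 1, PEDF library 2 or control library 2 the median was −0.0213, −0.0194 or −0.0262. It was the only role with a median below 0 over all 4 libraries, although that of RPA, Fen1 and Lig1 was −0.0225 without control library 2 and that of the helicase genes −0.0003 without control library 1. Within experiments the median difference of the 9 genes was 0.03 in experiment 1 and −0.10 in experiment 2, and no gene was called. Pole, the catalytic subunit of the polymerase of the leading strand, had 41.3 and 48.3 CPM in the control libraries and 37.4 and 39.1 CPM in the PEDF libraries. Its mean was 44.8 ± 4.94 CPM (SD, n = 2) in control and 38.2 ± 1.19 CPM (SD, n = 2) in PEDF-treated MEFs, and the groups did not overlap. The log2 fold change of −0.23 (95% interval, −0.43 to −0.03) had an unadjusted p of 0.0259 and an adjusted p of 0.696 in edgeR. With 1 library left out it was −0.34 to −0.11. Its partner Pole2, the second subunit, had 8.0 and 11.0 CPM in control and 9.26 and 8.19 CPM in PEDF-treated MEFs. The 2 experiments went opposite ways for Pole2, with differences of 0.21 and −0.42 on the log2 scale.

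Polymerase delta, which copies the lagging strand, showed no common direction among its subunits. Pold3 was lower in both PEDF libraries, with 33.3 and 28.6 CPM against 33.7 and 35.0 CPM. Its log2 fold change was −0.15 (95% interval, −0.37 to 0.06). It was −0.04 without PEDF library 2 and down to −0.26 with another library left out. Pold1, the catalytic subunit, had 70.8 and 78.5 CPM in control and 81.3 and 73.6 CPM in PEDF-treated MEFs, with a difference of 0.20 in experiment 1 and −0.09 in experiment 2. Pola1, the catalytic subunit that extends the primers, had 31.0 CPM in both control libraries and 31.7 and 33.3 CPM in the PEDF libraries, a log2 fold change of 0.07 (95% interval, −0.13 to 0.27). Polymerase transcripts summed to 302 and 324 CPM in control and 310.2 and 298 CPM in PEDF-treated MEFs.

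The clamp and its loader, the RFC complex that opens the ring, had 4 of 6 genes fitted above 0 and no call. Pcna had 123 and 114 CPM in control and 121 and 124 CPM in PEDF-treated MEFs. The groups overlapped, and the log2 fold change was 0.05 (95% interval, −0.11 to 0.20). Rfc1, the large subunit of the loader, varied least of the 6, with 71.15 and 73.2 CPM in control and 73.0 and 74.6 CPM in PEDF-treated MEFs. Rfc3 had the highest log2 fold change of the 6, at 0.16 (95% interval, −0.09 to 0.42). It was 0.0155 without control library 2 and up to 0.32 with another library left out. Rfc3 had 25.7 and 20.9 CPM in control and 27.2 and 24.9 CPM in PEDF-treated MEFs. Its groups overlapped, since the control library of experiment 1 was above the PEDF library of experiment 2.

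Replication protein A (RPA) covers single-stranded DNA and is made of 3 subunits in equal parts. Rpa3, the smallest subunit, had the highest log2 fold change of the 45 genes. It had 20.3 and 15.6 CPM in control and 22.3 and 21.7 CPM in PEDF-treated MEFs, so the means were 17.9 ± 3.31 and 22.0 ± 0.382 CPM (SD, n = 2 each). The log2 fold change of 0.30 (95% interval, 0.02 to 0.58) had an unadjusted p of 0.0384 and an adjusted p of 0.712 in edgeR. The value rested in part on control library 2, without which it was 0.12, and was up to 0.50 with another library left out. Rpa1, the large subunit that holds most DNA contacts, had 120.1 and 115 CPM in control and 124 and 120.2 CPM in PEDF-treated MEFs, and its log2 fold change was 0.05 (95% interval, −0.10 to 0.21).

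Fen1 and Lig1 encode the nuclease and the ligase that finish Okazaki fragments. Fen1 had 48.0 and 42.9 CPM in control and 46.6 and 47.0 CPM in PEDF-treated MEFs, and the groups overlapped. Lig1 was lower in both PEDF libraries by a small margin, with 70.0 and 71.4 CPM against 73.0 and 75.0 CPM. Its log2 fold change was −0.07 (95% interval, −0.23 to 0.10).

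Among the 4 genes of deoxynucleotide synthesis, Tyms was the only one of the 45 genes called in any comparison of PEDF with control. Thymidylate synthase makes the thymine nucleotide that only DNA needs. Tyms had 46.4 and 42.2 CPM in the control libraries and 56.7 and 48.2 CPM in the PEDF libraries, with means of 44.3 ± 2.97 and 52.5 ± 6.07 CPM (SD, n = 2 each). Both PEDF libraries were above both controls, and the difference was 0.29 in experiment 1 and 0.19 in experiment 2 on the log2 scale. Without the block, the log2 fold change was 0.24, or 1.18-fold (95% interval of the log2 value, 0.04 to 0.45), with an unadjusted p of 0.0215 and an adjusted p of 0.696 in edgeR, and it was 0.12 to 0.36 with 1 library left out. With the experiment as a block, Tyms rose by 0.24 on the log2 scale (95% interval, 0.10 to 0.38), with an adjusted p of 0.0354 in edgeR. With the block, DESeq2 gave Tyms and most other DNA replication genes no adjusted p. In that fit 0 of the 45 genes, Tyms included, had an unadjusted p under 0.05. Without the block, the unadjusted p of Tyms in DESeq2 was 0.0802.

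Tk1, thymidine kinase, which makes the same nucleotide by salvage, had 52.9 and 53.9 CPM in control and 57.6 and 57.5 CPM in PEDF-treated MEFs. The groups did not overlap, but the log2 fold change was 0.11 with an interval of −0.06 to 0.28, and the adjusted p was 0.799 in edgeR. Rrm1 and Rrm2 are the large and small subunits of ribonucleotide reductase, which supplies all 4 deoxynucleotides. Rrm1 had 225 and 239.6 CPM in control and 215 and 248 CPM in PEDF-treated MEFs. The PEDF values lay on both sides of the control values. Rrm2 had 148 and 149.7 CPM in control and 149 and 165 CPM in PEDF-treated MEFs, and its log2 fold change was 0.08 (95% interval, −0.08 to 0.23; 0.0026 without PEDF library 2 and 0.15 without PEDF library 1).

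Gene length moved with the fold changes in these libraries. Across the 10720 genes whose log2 CPM averaged over 3 and whose length was known, log2 exon length and log2 fold change had a Pearson's r of −0.37 and a Spearman's rho of −0.42, and across the 45 genes the values were −0.29 and −0.13. Genes are not independent replicates and share their libraries, so these are descriptions. The shortest and the longest of the 45 genes had the highest and the lowest log2 fold change, namely Rpa3 (1136 bp) and Pole (11160 bp). When each library was corrected for its trend with length, in the fit with the block, the log2 fold change of Rpa3 moved from 0.31 to 0.22, that of Gins4 (1349 bp) from 0.23 to 0.14, that of Gmnn (1465 bp) from 0.23 to 0.14 and that of Pole from −0.23 to −0.15. Their adjusted p in edgeR after correction was 0.421, 0.618, 0.730 and 0.435, in the same order. After the correction, r and rho with length were −0.00049 and −0.014 across the 10720 genes. Across the 45 genes they were 0.11 and 0.24, of the opposite sign to those before.

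Tyms (6089 bp) was at 0.24 before and 0.26 after the correction (95% interval, 0.12 to 0.41; adjusted p in edgeR, 0.0202, beside 2.22% of all genes called in that fit). The correction follows length alone and moved genes of like length alike, so this move was set by the length of Tyms. Orc3 (6088 bp) likewise moved from −0.12 to −0.0956. Orc5 (6166 bp) moved from 0.20 to 0.23 and did not pass. Of the 12 genes longer than 6000 bp, 9 had a log2 fold change above 0 after the correction, compared with 7 without block and correction. Of the 6 genes shorter than 2000 bp, 3 were above 0 both ways, with a median of 0.11 before and 0.03 after.

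**Figure D5:**
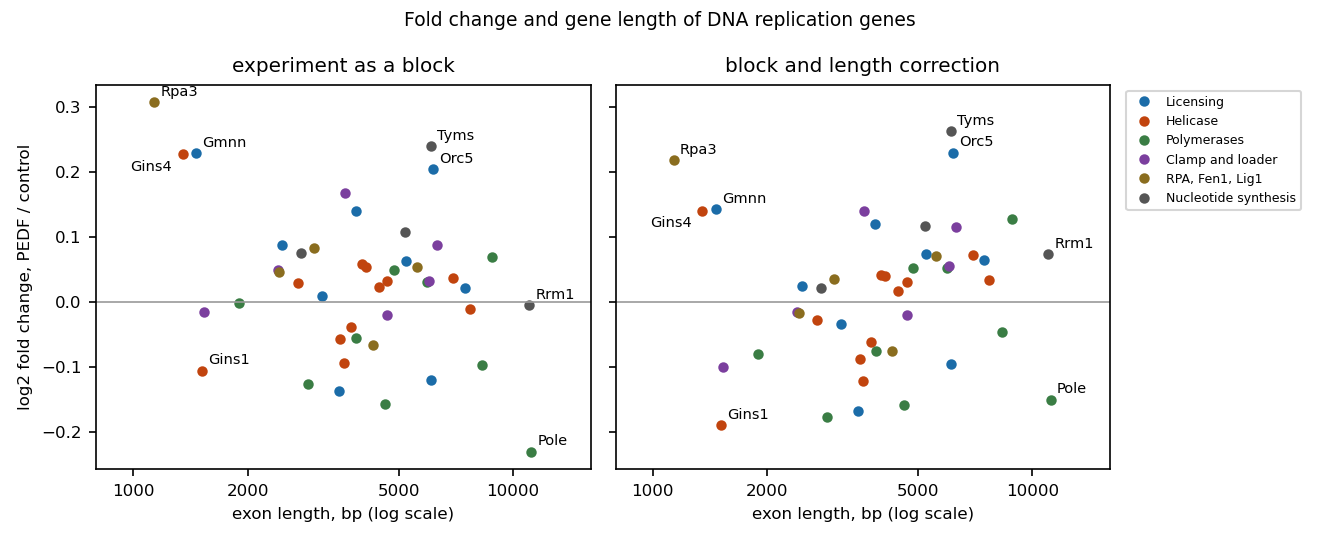
Log2 fold change of each DNA replication gene, PEDF over control, against its exon length in bp (log scale), in edgeR with the experiment as a block (left) and with an added correction for gene length (right), coloured by role. Rpa3, Gins4, Gmnn and Pole lie closer to 0 on the right, and Tyms and Orc5, which are close in length, lie higher.

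The difference between the 2 MEF preparations gives a scale for that of PEDF. In the fit with a treatment term, 1 of the 45 genes differed between experiment 2 and experiment 1 at an adjusted p under 0.05, beside 4.49% of all genes. It was Rrm1, which was higher in experiment 2 by 0.15 on the log2 scale (95% interval, 0.05 to 0.24; adjusted p in edgeR, 0.0443). The largest difference was that of Gins1, which was −0.40 (95% interval, −0.69 to −0.11; adjusted p in edgeR, 0.0974). The call of Rrm1 was lost in DESeq2 and limma, without the treatment term, and with the length correction, where the difference was 0.09. With 3 libraries the treatment term could not be kept, so the effect of leaving out a library on this call was not tested. The median of the difference without its sign was 0.05 on the log2 scale for the experiments and 0.06 for PEDF. Whether PEDF acted differently in the 2 experiments could not be tested with 1 library of each kind per experiment.

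Of 39 other DNA replication genes, such as the kinase gene Cdc7 and the chromatin assembly gene Chaf1a, none was called with or without the block or after the length correction. Their median log2 fold change was −0.03, and 3 passed an unadjusted p of 0.05 without the block (1 higher and 2 lower), beside 6.88% of all genes (3.22% higher and 3.66% lower). The 2 lower genes, named after their values were seen, were the helicase gene Recql4, with a log2 fold change of −0.39, and Cdc7, with −0.28.

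Of 42 mitosis genes, which act later in the cell cycle, none was called without the block, where 3 passed an unadjusted p of 0.05, all lower, beside 3.66% of all genes lower at that p, and the median log2 fold change was 0.02. With the block in edgeR, which called 3.75% of all genes, Espl1 (separase) and Mki67 (the antigen Ki-67) fell by 0.26 and 0.16 on the log2 scale, with adjusted p of 0.0141 and 0.0298 in edgeR. Mki67 did not pass with the block in DESeq2 (adjusted p in DESeq2, 0.231), which gave Espl1 no adjusted p. Neither gene passed after the length correction, where the log2 fold change was −0.20 for Espl1 (8749 bp) and −0.09 for Mki67 (10061 bp) and the adjusted p in edgeR was 0.122 and 0.439. The summed level of the mitosis genes was 1996 to 2105 TPM.

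Exons of 17 of the 45 genes overlap those of another gene, 14 of them on the opposite strand and 4 on the same strand. The library kit keeps the strand, but the strand setting of the counting is not given in the sources used here, so the counts of these genes are less certain. Among them are Rfc4, which overlaps the translation factor gene Eif4a2, Orc6, which overlaps Vps35, and Mcm7, which overlaps Ap4m1, Cops6 and the microRNA genes Mir25 and Mir93. Pole overlaps Gm15792, which had 180 counts in all libraries together, against 2749 for Pole. Tyms, Rpa3, Gins4 and Gmnn overlap no other exon in the annotation.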

How the data were processed

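MEFs were sequenced as polyadenylated RNA, with 1 control and 1 PEDF library in each of 2 experiments. The authors trimmed paired reads with Trimmomatic 0.38, aligned them to mm10 with HISAT2 2.1.0 and used featureCounts 1.6.3 to count the reads that mapped to 1 place (versions and build from the submitters' processing notes), and deposited these raw counts. The authors also deposited TPM values, and how they were converted is not given in the sources used here. Coordinates of 54784 of the 55487 genes, and of all 45 members, were those of GENCODE release M21, which gave exon lengths.

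The groups were compared by edgeR 4.0.16 in R 4.3.3 (TMM factors, robust quasi-likelihood test, genes with at least 10 counts in total, Benjamini-Hochberg adjustment), without a covariate, as the study names none. Standard errors and 95% intervals came from this fit. Each experiment had its own embryos, so its libraries share a preparation. Across 10722 genes whose log2 CPM averaged over 3, the control libraries and the PEDF libraries differed between experiments in a like way (r = 0.42, over genes and not replicates), while across the 45 members r was 0.045. As the pairing comes from the labels, a second fit had the experiment as a block, and a correction for gene length used natural splines with 5 degrees of freedom. DESeq2 1.42.0 and limma 3.58.1 on log2(TPM + 1) and log2(TPM + 0.1) were alternatives, as were RLE factors, no filter, filterByExpr and leaving out each library. Corrections for GC content, and for length between experiments, were added after seeing the data. Scripts were tested on simulated data.

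Genes given with values were those called, the 5 highest and 5 lowest fold changes, the 3 largest differences between experiments in each direction and a fixed set by role. The members and lists were chosen with earlier results of these data known. Intervals rest on 2 libraries a group, and edgeR shared the estimate of spread over genes. In the fits with the block, few degrees of freedom are left for each gene. Their intervals and p thus rest almost wholly on the shared spread, not on that of each gene. The values of 1 gene of the other DNA replication list are not reported here.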

Additional observations from a re-analysis of the deposited data

How the results depend on the processing

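No DNA replication gene was called for PEDF under any alternative except the edgeR fits with a replicate block, which called 1 (Tyms), also with length correction and with length and GC correction. In those 3 edgeR fits the log2 fold change of Tyms was 0.24, 0.26 and 0.26. The block in DESeq2 gave most of the 45 genes, Tyms included, no adjusted p. In that DESeq2 fit 0 of the 45 genes, Tyms included, had an unadjusted p under 0.05, so the call rests on edgeR alone. The edgeR block without correction also called 2 mitosis genes (Espl1, −0.26, and Mki67, −0.16), and the block with either correction called 0. Block fits without a library were not run, as none has residual degrees of freedom.

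The number of genes at an unadjusted p under 0.05 was 4, and was 0 with DESeq2 and with the replicate block in DESeq2, 1 with either limma fit, and 0 to 5 with 1 library left out (0 without PEDF library 1 or control library 2). The median log2 fold change of 0.03 stayed above 0. It was 0.0143 and 0.0127 with limma at pseudocounts of 0.1 and 1, 0.0357 with the block in DESeq2, 0.0234 with the block, length and GC correction, and 0.0244 to 0.0369 with 1 library left out. The call of Rrm1 between experiments (1 gene) became 0 with DESeq2, the length correction, either limma fit and no treatment term. With 1 library left out it was also 0 (0 to 0), but those fits dropped the treatment term too, which alone gave 0.

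Of 33 genes followed under 14 alternatives for PEDF, 22 kept 1 sign and 11 did not, none of them called. Cdt1 was −0.0131 and −0.0128 with limma, and Mcm7 −0.001 in both. With length correction Cdt1 was −0.0338, Fen1 −0.0176, Pcna −0.0156 and Rrm1 0.0738, and with GC correction added −0.0079, −0.0142, −0.0525 and 0.0597. With 1 library left out the ranges were −0.13 to 0.0125 for Cdc45, −0.064 to 0.0859 for Cdt1, −0.0386 to 0.13 for Fen1, −0.34 to 0.14 for Gins1, −0.0199 to 0.0949 for Mcm2, −0.28 to 0.0064 for Orc1, −0.0068 to 0.10 for Pcna, −0.0213 to 0.13 for Pold1, −0.33 to 0.12 for Pole2 and −0.11 to 0.10 for Rrm1. Between experiments, also without the treatment term, the ranges were −0.45 to 0.0301 for Rpa3, −0.076 to 0.34 for Pole2 and −0.0103 to 0.29 for Pole, with the sign changed without control library 2. The causes were not tested.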
